A study of Mus musculus with 4 samples.

Results

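Histone genes fall into a set whose products are made in bulk while DNA is copied and a smaller set of variants made throughout the cell cycle, and both were followed in the mouse stomach corpus after injury. Members were the genes of the deposited table with the prefixes Hist1h, Hist2h, Hist3h or Hist4h for the replication-dependent set, and H2af, H3f3 or H1f for the variant set, without names marked as pseudogenes. The rule found 87 of the 52125 rows of the table, of which 69 were replication-dependent and 18 variant. The variant prefix also takes in H3f3aos, an antisense RNA that codes for no histone, and 17 variant members remain without it. Some members whose names carry no such mark are still annotated as pseudogenes, namely H2afy3 and H3f3c among the variants and Hist1h2aj and Hist1h2al in the replication-dependent set. The samples were stomach corpus, where the acid-secreting glands lie, of C57BL/6 wild type mice aged 6 to 8 weeks. The HDT group held 2 mice that had received a single intraperitoneal dose of 5 mg per 20 g of body weight, with tissue from 48 hr. The labels write only HDT, which in gastric research usually stands for high-dose tamoxifen. The vehicle group held 2 mice of the same strain, genotype, age and time. The labels call these controls vehicle in one place and untreated in another, and each library came from 1 mouse.

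A nucleosome wraps DNA around pairs of the core histones H2A, H2B, H3 and H4, and the linker histone H1 binds where the DNA enters and leaves. Replication-dependent histone genes sit in clusters, lack introns in their main form, and give mRNAs that end in a conserved stem-loop instead of a poly(A) tail. The stem-loop binding protein Slbp takes these mRNAs through processing and translation in S phase, and they are degraded when DNA synthesis stops. Some clustered genes also give longer, polyadenylated mRNAs, which have been described in differentiated cells. Variant genes lie outside the clusters, mostly have introns and poly(A) tails, and supply chromatin through the rest of the cycle. The oxyntic glands of the corpus are renewed by division of progenitors in the isthmus, and loss of parietal cells after injury is followed by a wave of proliferation.

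The stem-loop is shown here because it is the signal at which the mRNA of replication-dependent histone genes is normally cleaved, although 22 of the replication-dependent genes that hold it are annotated to run 100 or more bases past it. It was sought in GENCODE M21 transcripts (GRCm38) within 200 bases after the stop codon, as a 16-base hairpin that begins with GG, ends with CC, forms 6 base pairs (G-U pairs allowed) and has a 4-base loop beginning with TT. Of the 52 replication-dependent genes with at least 16 annotated bases after the stop codon, 44 held such a hairpin, against 26 of 20902 protein-coding genes outside the family, or 0.124%. Among 12 variant genes with such an annotated end, the only match was in H2afx, which encodes H2A.X, the histone phosphorylated around DNA breaks. The hairpin began 22 to 59 bases after the stop codon and occurred in 7 distinct sequences. These are given 5′ to 3′ on the transcript in DNA letters, with the paired stem in capitals and the loop in lower case, for members that return below.
Hist1h1c, chr13, and 25 other genes: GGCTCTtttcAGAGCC
Hist1h2bb, chr13, and 5 other genes: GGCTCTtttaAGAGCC
Hist2h2ac, chr3: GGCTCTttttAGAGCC
Hist1h4h, chr13, and 6 other H4 genes: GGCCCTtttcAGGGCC
Hist1h4i, chr13, and 1 other H4 gene: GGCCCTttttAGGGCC
Hist1h4j, chr13, and 1 other H4 gene: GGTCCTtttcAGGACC
H2afx, chr9: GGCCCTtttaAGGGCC
The stem of H2afx is that of most H4 genes, and its loop ends like that of Hist1h2bb. On GRCm38 the hairpin lies at chr9:44335240-44335255 in H2afx, at chr13:23739512-23739527 in Hist1h1c and at chr13:23531458-23531473 in Hist1h4h. In H2afx the annotated transcript runs 822 bases past the hairpin.

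Promoters were compared over the 250 bases before each start in RefSeq (GRCm38.p6), where 62 replication-dependent and 15 variant genes could be matched. The CCAAT box, searched as CCAAT on both strands, was in 82.5% of the 63 replication-dependent windows and 60% of the 15 variant windows, against 33.8% of all 32851 promoter windows. TATAAA was in 46%, 6.7% and 12.4% of the same sets. The 8-letter motif GCGCGAAA, a form of the E2F site, was in 11.1%, 0% and 0.3%. Neighbouring histone genes often share 1 divergent promoter, so these windows overlap and are not independent. The 100 bases before the start are shown for the variant called highest in level among those that rose and for the most abundant replication-dependent gene, with CCAAT of either strand in capitals.
H2afz, chr3:137864387-137864486, plus strand: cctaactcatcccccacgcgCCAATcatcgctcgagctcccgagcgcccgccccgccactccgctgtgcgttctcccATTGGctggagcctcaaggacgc
Hist1h1c, chr13:23738707-23738806, plus strand: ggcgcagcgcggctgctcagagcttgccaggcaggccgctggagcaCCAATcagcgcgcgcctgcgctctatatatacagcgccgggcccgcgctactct

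Depth was 42175023 and 42674985 reads in the HDT libraries and 41536686 and 42104568 reads in the vehicle libraries. Levels are given as CPM, the recovered reads of a gene brought to a common library size by the TMM method. Across all genes 37.7% of the 18285 tested were called, 18.4% higher and 19.3% lower (limma, adjusted p under 0.05). The direction of modest changes depends on scaling, because over all genes the fold change had a median of −0.001 on the log2 scale with TMM and 0.526 with the values scaled as deposited. The corpus markers were present and lower in HDT, with parietal cell genes summing to 1675 and 1376 CPM in HDT and 11530 and 12650 CPM in vehicle (3 of 3 called lower), and chief cell genes to 40270 and 29610 CPM in HDT and 142000 and 174400 CPM in vehicle (3 of 4 called lower). Pit and neck cell genes summed to 39210 and 49300 CPM in HDT and 72480 and 70560 CPM in vehicle (5 of 5 called lower), and erythroid genes to 18.6 and 12.2 CPM in HDT and 58.3 and 65.9 CPM in vehicle (5 of 5 tested called lower). With the deposited scaling 2 of the 5 pit and neck cell genes were called lower, while the parietal, chief and erythroid lists kept 3, 3 and 5 lower calls. Vehicle replicate 2 stood apart in 5 exocrine pancreas genes, which summed to 12 and 12.3 CPM in the HDT libraries, 33.6 CPM in vehicle replicate 1 and 165 CPM in vehicle replicate 2. Squamous forestomach genes summed to 2.84 and 3.29 CPM in HDT and 1.99 and 1.74 CPM in vehicle. Of the 5 tested, 1 was called higher, Ivl, with 39 and 44 reads in HDT and 1 and 1 reads in vehicle, and 4 had no call. Markers of myeloid cells summed to 309 and 239 CPM in HDT and 118 and 128 CPM in vehicle, with 4 of 6 genes called higher and none at 0 reads. Those of T and B lymphocytes summed to 9.18 and 7.21 CPM in HDT and 4.23 and 4.01 CPM in vehicle. Most of the lymphocyte sum was Cd4, and the T cell gene Cd3e was at 0.0778 to 0.227 CPM. In bulk tissue a change in the number of cells of a type and a change in RNA per cell cannot be told apart, and the part of these marker differences in the histone results was not tested.

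Most replication-dependent genes had almost no reads. Of 69 members, 18 passed the low-count filter, 51 did not, and 5 were at 0 in every library. None of the 51 exceeded 14 reads in any library, and together they had 157 and 125 reads in HDT and 50 and 93 reads in vehicle, or 3.05 and 2.48 CPM in HDT and 1.42 and 2.7 CPM in vehicle. In CPM the lower HDT sum of 2.48 lay below the higher vehicle sum, so the groups overlapped. In recovered reads both HDT sums lay above both vehicle sums. A count of 0 in a library allows up to 3 reads, so the 5 genes at 0 were not detectable at this depth, which does not show that they are absent. The H3 genes gave examples of single-digit counts, such as Hist1h3a, with 3 and 3 reads in HDT and 3 and 1 reads in vehicle, and Hist1h3b, with 5 and 1 reads in HDT and 1 and 0 reads in vehicle. The testis forms were likewise near 0, with Hist1h1t at 4 and 2 reads in HDT and 1 and 1 reads in vehicle, and Hist1h2aa at 0 throughout.

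Summed over genes, read number went with the annotated end of the transcript, but single genes departed from this. Among 27 replication-dependent genes whose annotation runs 100 or more bases past the hairpin, or past the stop codon where no hairpin is annotated, 15 passed the filter, and they held 6290 and 6153 reads in the HDT libraries and 6086 and 7021 reads in the vehicle libraries. Among 40 genes annotated to end within 100 bases of that point, 3 passed, and they held 187 and 142 reads in HDT and 112 and 171 reads in vehicle. In CPM the 40 summed to 3.64 and 2.81 in HDT and 3.18 and 4.96 in vehicle, with overlap. Those of the 40 below the filter had 115 and 85 reads in HDT and 28 and 47 reads in vehicle. Their CPM was 2.24 and 1.68 in HDT and 0.795 and 1.365 in vehicle, higher in HDT without overlap. That separation depends on the filter, since the 40 together overlapped. The 3 left out include Hist1h4h, with 20 and 4 reads in HDT and 40 and 59 reads in vehicle. Of all tested genes, 35.3% were higher in HDT without overlap. The remaining 2 genes are annotated as pseudogenes. Most reads of the 27 came from Hist1h1c and Hist1h2bc, and Hist1h1c alone had 3148 and 3299 reads in HDT and 2879 and 3513 in vehicle. Others of the 27 had almost none. Hist4h4, annotated to run 2445 bases past the hairpin, had 0 and 2 reads in HDT and 2 and 3 in vehicle. The limit of 100 bases was chosen after the values were seen, and no gene with a hairpin lies between 74 and 151 bases. A longer annotation also counts reads over more bases, and this was not separated from the length of the mRNA. As a check of what the libraries hold, 13 RNAs known to lack a poly(A) tail, such as Rn7sk and Rmrp, summed to 0.408 and 0.416 CPM in HDT and 0.568 and 0.668 CPM in vehicle. Between 7 and 9 of the 13 were at 0 in each library. These RNAs are short, with annotated lengths from 70 bases in Scarna9 to 423 in Terc and none available for Rmrp. The part of length in their low values was not tested. The labels name total RNA as the molecule and do not say how the libraries selected RNA, and the part of that step in the histone values was not tested.

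**Figure D1:**
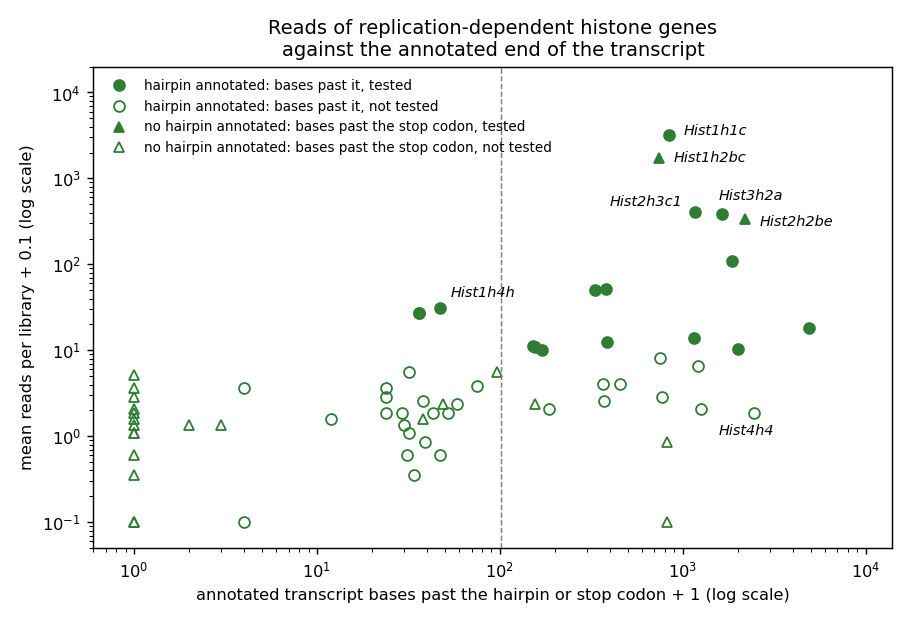
Mean recovered reads per library plus 0.1 (vertical axis, log scale) of the 67 replication-dependent histone genes annotated as coding, against the annotated bases past the hairpin, or past the stop codon where no hairpin is annotated, plus 1 (horizontal axis, log scale). Filled symbols passed the low-count filter, and the dashed line at 100 bases has 15 filled symbols to its right and 3 to its left, where Hist2h2aa1 and Hist2h2aa2 coincide.

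Near-identical copies limit what can be said of single genes. The share of 100-base windows of a gene's transcripts that occur in no other gene had a median of 62.9% over the 69 replication-dependent genes, and 29 genes were under 50%. The median was 53.6% over the genes that did not pass the filter and 74.95% over those that did. In 5 of the 69 there was no such window. These were Hist2h2bb and Hist2h3b, which did not pass the filter, and Hist2h2aa1, Hist2h2aa2 and Hist2h3c1, which did, so reads of these genes and their copies may have been split or dropped in counting, and their values are uncertain. Hist1h2be overlaps Hist1h1e by 496 bases on the same strand, and H3f3aos overlaps H3f3a by 168 bases on the opposite strand, and whether counting used strand is not stated in the labels.

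The replication-dependent genes that were measured were lower in HDT or showed no called change relative to other genes. Of 18 tested, 7 were called lower and 0 higher, against 19.3% lower and 18.4% higher among all genes, and 11 had no call (limma, adjusted over all genes). At an unadjusted p under 0.05, 10 were lower and 0 higher, against 23.7% lower and 23.1% higher among all genes. The quasi-likelihood test of edgeR called 7 lower and 0 higher, against 18.8% and 18.2% of all genes, and DESeq2 6 lower and 0 higher, against 16.8% and 15.2%. The 6 of DESeq2 were 5 of the 7 called by limma and Hist1h2be, with Hist1h1d lost and Hist1h4j given no adjusted p. The median log2 fold change of the 18 was −0.62, and −0.1 with the deposited scaling against 0.526 for all genes. In 11 of the 18 both HDT libraries lay below both vehicle libraries and in 3 above, while 35.5% and 35.3% of all tested genes did so, or 70.8% in either direction. Those counts cover only members with enough reads and are not a statement on the 51 others. Hist1h4h and Hist1h4j, both called lower, passed the filter through their vehicle reads (40 and 59, and 20 and 12). Hist1h2ac, Hist1h2ae, Hist1h2bg and Hist3h2ba, none of them called, passed through their HDT reads. The counts of calls therefore depend in part on the filter. With the deposited scaling 2 were lower (Hist1h2bc and Hist1h4h) and 2 higher (Hist2h2be and Hist1h4i), against 5.46% lower and 62.8% higher among all genes, so the fall of the other called genes is relative to the TMM median. Without vehicle replicate 2, the library with pancreatic transcripts, Hist1h4h lost its call. Hist1h3g, one of the 51 others, then passed the filter and was called higher. Without HDT replicate 2, Hist1h1d, Hist1h4j and Hist2h3c1 lost their calls.

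Among linker genes, Hist1h1c, which encodes H1.2, was at 61.2 and 65.4 CPM in HDT and 81.8 and 102 CPM in vehicle. Its groups did not overlap, and the log2 fold change was −0.53 (SE 0.107, limma adjusted p = 0.00828), but 0.00 with the deposited scaling. The call was lost when HDT replicate 1 was left out, at −0.48 (limma adjusted p = 0.0796). It lies on chromosome 13 at 23738808 to 23740367, and its annotated transcript runs 840 bases past the hairpin. Hist1h1d, chosen after its values were seen, had 14 and 11 reads in HDT and 27 and 21 reads in vehicle, a log2 fold change of −1.41 (limma adjusted p = 0.0145), and its call was lost at the deposited scaling (0.0506), without HDT replicate 2 (0.0732), without vehicle replicate 1 (0.086) and with DESeq2 (0.0728). Hist1h1e was at 0.214 and 0.258 CPM in HDT and 0.455 and 0.436 CPM in vehicle, lower in both HDT libraries and not called (limma adjusted p = 0.103). The S phase linker gene Hist1h1b was at 0 reads in every library, and Hist1h1a had 2 and 4 reads in HDT and 0 and 3 in vehicle.

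Of 5 tested H2A genes, only Hist3h2a was called, and it lies on chromosome 11 at 58954685 to 58956830. Its level was 7.54 and 7.07 CPM in HDT and 10.3 and 12.5 CPM in vehicle, with no overlap, a log2 fold change of −0.63 (SE 0.123, limma adjusted p = 0.00512) and −0.1 with the deposited scaling. Hist2h2aa2 was at 0.486 and 0.535 CPM in HDT and 0.852 and 0.726 CPM in vehicle and was not called (limma adjusted p = 0.133). Of 5 tested H2B genes, Hist1h2bc was lower under every alternative run. It was at 29.9 and 29.6 CPM in HDT and 54.2 and 55.2 CPM in vehicle, a log2 fold change of −0.88 (SE 0.062, limma adjusted p = 3.6e-05) and −0.34 with the deposited scaling. Hist1h2bc lies on chromosome 13 at 23684199 to 23692908, and its annotated transcript has 742 bases after the stop codon and no hairpin in the first 200. Hist2h2be, whose annotated transcript also lacks the hairpin in that window, was at 8.71 and 7.03 CPM in HDT and 7.98 and 8.01 CPM in vehicle. The vehicle values lay between the HDT values, and the log2 fold change was −0.03 (limma adjusted p = 0.873) and 0.5 with the deposited scaling, where it was called.

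Both tested H3 genes were copies of H3.2 on chromosome 3. Hist2h3c1 was at 7.84 and 6.76 CPM in HDT and 10.4 and 15.2 CPM in vehicle, with no overlap and a log2 fold change of −0.79 (SE 0.188, limma adjusted p = 0.0173). The call was lost on leaving out either HDT library (limma adjusted p = 0.0523 without replicate 1 and 0.0966 without replicate 2), and at the deposited scaling (0.22). Its neighbour Hist2h3c2 was at 0.933 and 0.911 CPM in HDT and 1.22 and 1.95 CPM in vehicle and was not called (limma adjusted p = 0.0686). Of 3 tested H4 genes, Hist1h4h had the largest fold of the tested members, at 0.389 and 0.0793 CPM in HDT and 1.14 and 1.71 CPM in vehicle. The log2 fold change was −2.8 (SE 0.679, limma adjusted p = 0.0222), from 20 and 4 reads in HDT and 40 and 59 reads in vehicle. The call was lost on leaving out either vehicle library (−3.11 and limma adjusted p = 0.0761 without replicate 1, −2.53 and 0.0952 without replicate 2). Its size rests on the HDT libraries, at −3.8 without HDT replicate 1 and −1.77 without HDT replicate 2. Hist1h4j, with 9 and 8 reads in HDT and 20 and 12 reads in vehicle, was chosen after its values were seen and had a log2 fold change of −1.31 (limma adjusted p = 0.0424). That call was lost without HDT replicate 1 (0.127), HDT replicate 2 (0.159) or vehicle replicate 1 (−0.99, 0.281), with the replicate block (0.0686) and at the deposited scaling (0.126), and DESeq2 gave it no adjusted p. Hist1h4i was at 1.28 and 1.29 CPM in HDT and 0.937 and 1.07 CPM in vehicle, higher in both HDT libraries and not called (limma adjusted p = 0.257), with 0.87 and a call at the deposited scaling.

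A few genes of the large clusters went the other way on very few reads. With no low-count filter, all of the 69 replication-dependent members but the 5 at 0 were tested, and 3 were called higher. That share is below the 12.1% of all genes so tested. The 3 were Hist1h3g, Hist1h2ag and Hist1h3h, which were named after their values were seen. Hist1h3g had 14 and 7 reads in HDT and 0 and 1 reads in vehicle, a ratio of pooled scaled reads of 14.4, for which counting error alone gives an exact 95% interval of 2.31 to 594 (limma adjusted p = 0.0111 without the filter). Hist1h2ag had 7 and 6 reads in HDT and 0 and 1 reads in vehicle, a ratio of 8.89 with an interval of 1.33 to 378. Hist1h3h had 3 and 4 reads in HDT and 0 in both vehicle libraries, a ratio of 1.59 against a floor of 3 reads over the vehicle group, and the exact lower 95% limit of the ratio is 0.985, so that equal levels lie within counting error. These intervals cover counting error only. The share of 100-base windows found in no other gene was 62.9% for Hist1h3g, 23.8% for Hist1h2ag and 8% for Hist1h3h. Reads of the last 2 may therefore belong to near-identical copies.

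**Figure D2:**
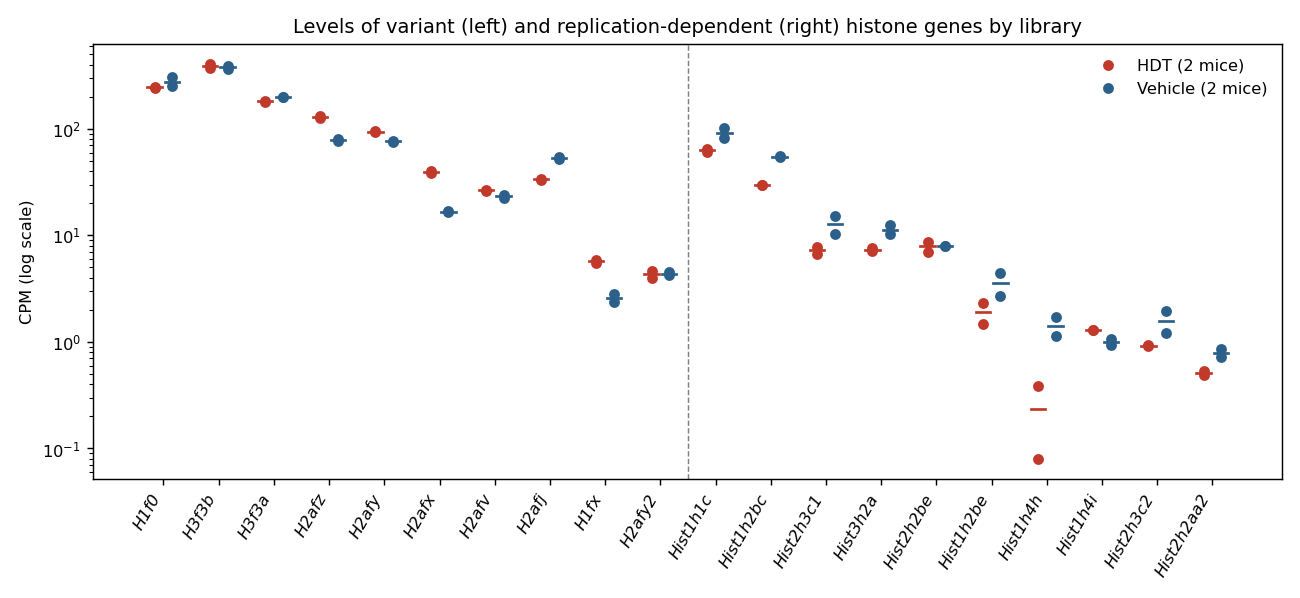
CPM on a log scale for 10 variant (left of the dashed line) and 10 replication-dependent histone genes, with 1 point per mouse for HDT (red) and vehicle (blue), and bars at the mean of 2 mice. H2afx, H1fx and H2afz lie higher in HDT without overlap, H2afj, Hist1h2bc and Hist1h4h lie lower, and H3f3b overlaps between groups.

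Variant histone genes were measured at far more reads, and 3 of the 4 that were called higher rose also with the library that stood apart or any other left out. Of 18 variant members 12 passed the filter, including the antisense RNA, and 5 were at 0 in every library. Of the 12, 4 were called higher and 1 lower, against 18.4% higher and 19.3% lower among all genes (limma, adjusted over all genes), and 7 had no call. With the deposited scaling 9 were higher and 0 lower, against 62.8% higher and 5.46% lower among all genes. The median log2 fold change was 0.02, and 0.54 with the deposited scaling, which in both cases is close to that of all genes. The members at 0 were the testis forms H2afb1, H2afb2 and H2afb3, the spermatid linker H1fnt and the processed pseudogene H2afy3. The oocyte linker H1foo had 1 read in 1 HDT library.

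The H2A variants moved apart from each other. H2afx lies on chromosome 9 at 44334694 to 44336077, and its level was 40.4 and 38.8 CPM in HDT and 16.5 and 16.9 CPM in vehicle. The groups were far apart, with a log2 fold change of 1.24 (SE 0.07, limma adjusted p = 1.25e-05) and 1.78 with the deposited scaling. Its share of all variant H2A reads was 12.2% and 12% in HDT and 6.5% and 6.71% in vehicle, with Wilson 95% intervals lying within 11.5 to 12.7% in HDT and 6.01 to 7.25% in vehicle, and such a share does not depend on library scaling. These and the other Wilson intervals below cover counting error only, take reads as independent molecules and do not describe the spread between mice.

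H2afz, which encodes H2A.Z.1, a variant placed at promoters and exchanged by the SRCAP and EP400 complexes, was at 132 and 126 CPM in HDT and 80.8 and 76.4 CPM in vehicle. The log2 fold change was 0.71 (SE 0.063, limma adjusted p = 0.000109), and both HDT values were above both vehicle values. Its paralog H2afv, for H2A.Z.2, was at 26.7 and 26.4 CPM in HDT and 22.6 and 24.1 CPM in vehicle and was not called (log2 fold change 0.18, limma adjusted p = 0.0832), though it was called with upper-quartile scaling at 0.22 and with the deposited scaling at 0.71. H2afz made up 83.1% and 82.6% of the reads of the pair in HDT and 78.1% and 76% in vehicle, with Wilson 95% intervals of 82.3 to 83.9%, 81.8 to 83.5%, 76.8 to 79.4% and 74.5 to 77.4% in the same order.

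H2afy, which encodes the macroH2A1 proteins with a large additional domain, was at 93.1 and 94.8 CPM in HDT and 74.7 and 77.8 CPM in vehicle. The log2 fold change was 0.3 (SE 0.06, limma adjusted p = 0.0056), and without vehicle replicate 1 it was 0.27 and not called (0.0611). H2afy2, for macroH2A2, was at 3.99 and 4.62 CPM in HDT and 4.49 and 4.21 CPM in vehicle, with overlapping groups (log2 fold change −0.02, limma adjusted p = 0.931). H2afj, for H2A.J, a variant that accumulates in senescent human fibroblasts, was the single variant called lower. It was at 34.1 and 32.9 CPM in HDT and 54.3 and 52.5 CPM in vehicle, with no overlap and a log2 fold change of −0.67 (SE 0.064, limma adjusted p = 0.000144), and −0.14 and no call with the deposited scaling (limma adjusted p = 0.115). H2afj lies on chromosome 6 at 136808244 to 136810074, beside the replication-dependent gene Hist4h4 at 136801553 to 136804415, which had 0 and 2 reads in HDT and 2 and 3 reads in vehicle.

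Of the linker variants 1 was called. H1fx, for H1X, lies on chromosome 6 at 87980421 to 87981637, and its level was 5.85 and 5.55 CPM in HDT and 2.36 and 2.82 CPM in vehicle, a log2 fold change of 1.14 (SE 0.153, limma adjusted p = 0.0008). H1f0, for H1.0, a linker known from differentiated and resting cells, was at 244 and 246 CPM in HDT and 252 and 304 CPM in vehicle. Its values were lower in both HDT libraries, without a call (log2 fold change −0.18, limma adjusted p = 0.162), and the direction turned to 0.35 with a call at the deposited scaling. Per kb of exon, H1f0 averaged 119 CPM in HDT and 135 CPM in vehicle, against 40.6 and 58.9 CPM per kb for Hist1h1c and 4.68 and 2.13 CPM per kb for H1fx in the same group order.

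The H3.3 genes, which code for the same protein and are used outside S phase, showed no called change with TMM. H3f3b was at 374 and 409 CPM in HDT and 367 and 388 CPM in vehicle, with overlapping groups and a log2 fold change of 0.05 (limma adjusted p = 0.608), and 0.58 with a call at the deposited scaling. H3f3a was at 184 and 180 CPM in HDT and 197 and 198 CPM in vehicle, a log2 fold change of −0.12 (limma adjusted p = 0.149) that turned to 0.41 with a call at the deposited scaling. H3f3b made up 67% and 69.5% of the reads of the pair in HDT and 65% and 66.3% in vehicle, with Wilson 95% intervals of 66.5 to 67.6%, 68.9 to 70%, 64.4 to 65.7% and 65.6 to 66.9% in the same order, and the HDT mice differed from each other beyond counting error. H3f3c, annotated as a processed pseudogene, was at 0.525 and 0.258 CPM in HDT and 0.511 and 0.755 CPM in vehicle and was not called (limma adjusted p = 0.215). The antisense RNA H3f3aos, at 0.194 and 0.277 CPM in HDT and 0.284 and 0.203 CPM in vehicle, was not called (limma adjusted p = 0.948).

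**Figure D3:**
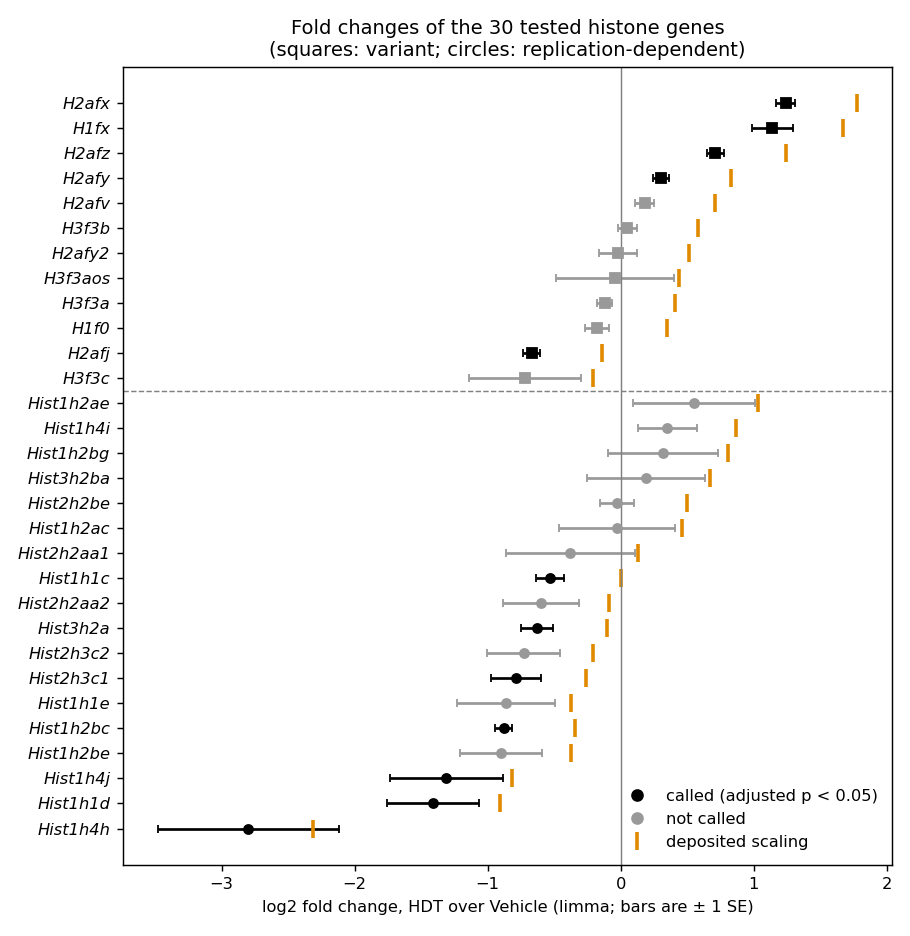
Log2 fold change of HDT over vehicle with ± 1 SE for the 12 variant (squares, top) and 18 replication-dependent (circles, bottom) genes that passed the filter, black where called by limma, with an orange bar at the value under the deposited scaling. H2afx is the highest at 1.24 and Hist1h4h the lowest at −2.8, and the deposited scaling moves the members to the right.

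Within a library the balance of the 2 sets differed between groups in a way that scaling cannot change. Replication-dependent genes took 9.97% and 9.69% of all histone reads in HDT and 14.1% and 15.4% in vehicle, with Wilson 95% intervals of 9.74 to 10.2%, 9.46 to 9.92%, 13.8 to 14.4% and 15.1 to 15.7% in the same order. The values of the groups did not overlap, the vehicle mice also differed from each other beyond counting error, and with 2 mice against 2 an exact two-sided permutation test cannot give a p below 0.333. In recovered reads the replication-dependent sum was 6479 and 6297 in HDT and 6198 and 7192 in vehicle, where the groups overlap. In CPM it was 126 and 125 in HDT and 176 and 209 in vehicle. The variant sum without the antisense RNA was 58534 and 58708 reads in HDT and 37767 and 39452 reads in vehicle, or 1138 and 1163 CPM in HDT and 1073 and 1145 CPM in vehicle. Hist1h1c and Hist1h2bc alone gave 72.4% and 76.1% of the replication-dependent reads in HDT and 77.2% and 75.3% in vehicle, so this balance rests largely on 2 genes with long annotated transcripts.

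The genes that accompany histone supply were set beside the members. All 25 of the S phase genes listed were called higher, with a median log2 fold change of 1.5, against 18.4% of all genes (limma). The proliferation antigen gene Mki67 was at 197 and 160 CPM in HDT and 41.95 and 50.1 CPM in vehicle, a log2 fold change of 1.95 (limma adjusted p = 0.000113), Rrm2 had one of 2.09 (2.47e-05) and Top2a one of 2.2 (0.000163). Over the same libraries no replication-dependent gene that passed the filter was called higher with TMM. Of those 18 genes, 15 have the long annotated ends described above, and the genes below the filter are not covered. All 5 genes of the centromeric H3 variant and its loading were also higher, with a median of 1.38. Cenpa, chosen after its values were seen because it is the H3 variant outside the naming rule of the members, was at 29.3 and 24.7 CPM in HDT and 11 and 11.2 CPM in vehicle (log2 fold change 1.27, limma adjusted p = 5.42e-05). Its loading factors Oip5 and Hjurp had log2 fold changes of 1.53 and 1.38 (limma adjusted p = 0.00116 and 0.000524).

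In the other lists the calls stand against 18.4% higher and 19.3% lower among all genes, and the medians against −0.001 for all genes with TMM and 0.526 at the deposited scaling. Of 10 chaperones that supply H3 and H4 at the replication fork, 7 rose and 0 fell, and the median was 0.66 (1.2 at the deposited scaling). The chromatin assembly factor subunit Chaf1b was at 16.7 and 14.2 CPM in HDT and 4.69 and 5.81 CPM in vehicle (log2 fold change 1.56, limma adjusted p = 0.000113), Chaf1a had a log2 fold change of 1.47 (4.59e-05) and the histone donor Asf1b one of 1.46 (4.6e-05). Of 11 chaperones and exchangers of H2A-H2B, 8 rose and 0 fell, and the median was 0.45 (0.98 at the deposited scaling). The nucleolar chaperone Npm1 had a log2 fold change of 0.99 (limma adjusted p = 6.31e-05), the nucleosome assembly protein Nap1l1 one of 0.92 (9.74e-05) and Anp32e, which removes H2A.Z, one of 0.69 (0.000105). Of 6 genes of the H3.3 chaperones 4 rose and 0 fell, and the median was 0.3 (0.83 at the deposited scaling), among them Ubn2 at 0.48, Atrx at 0.39 and Cabin1 at 0.35 (limma adjusted p = 0.0016, 0.00588 and 0.00907), and the call of Cabin1 was lost when vehicle replicate 1 was left out (0.0672).

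Of 17 genes for transcription and 3′ end processing of histone mRNA, 9 were higher, 1 lower and 7 without a call, with a median of 0.27 (0.8 at the deposited scaling). Slbp, which binds the stem-loop, was at 31.3 and 28.8 CPM in HDT and 18.4 and 17.8 CPM in vehicle, with no overlap and a log2 fold change of 0.73 (limma adjusted p = 0.000245). Eri1, an exonuclease that trims that end, had a log2 fold change of 0.54 (limma adjusted p = 0.00178). Mblac1, a nuclease of this pathway described in human cells, was the lower member at 1.38 and 1.29 CPM in HDT and 1.99 and 2.24 CPM in vehicle (log2 fold change −0.65, limma adjusted p = 0.0313), and it was not called with any library left out, with DESeq2, with the replicate block or with the deposited scaling. With the replicate block the higher members of this list numbered 5, and without vehicle replicate 1 they also numbered 5.

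**Figure D4:**
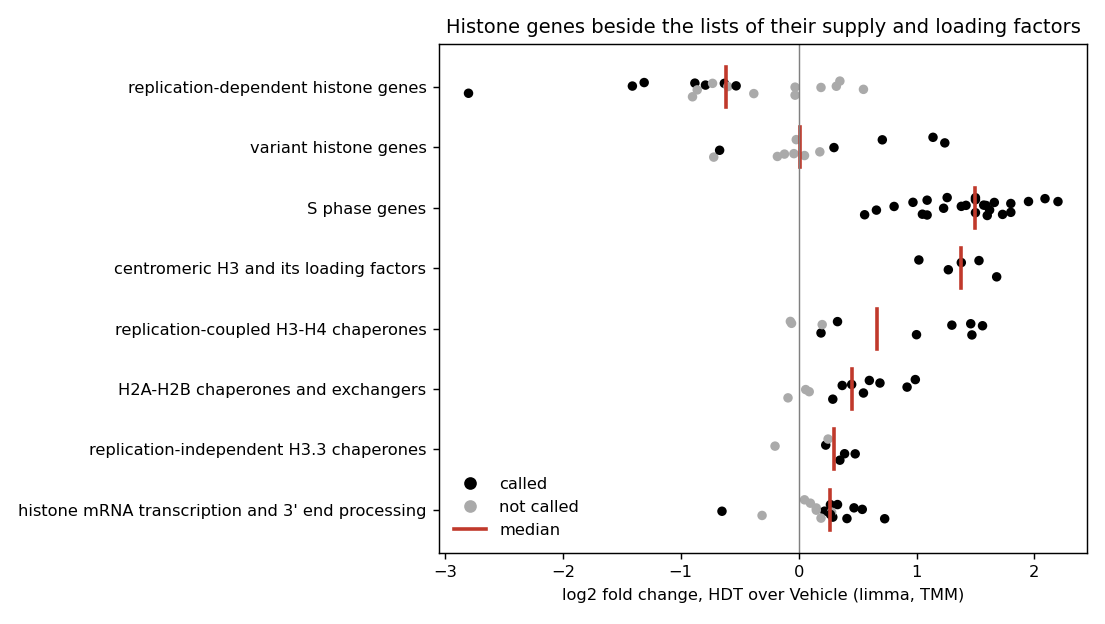
Log2 fold change of HDT over vehicle (limma, TMM) for each tested gene of the replication-dependent and variant histone sets and of 6 lists of supply and loading factors, 1 point per gene, black where called, with a red bar at the median. The S phase list lies wholly above 0 with a median of 1.5, and the replication-dependent histone set has a median of −0.62.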

How the data were processed

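RNA-seq libraries of 4 mice were analysed, and each library is 1 mouse. The submitters' processing notes name the tools STAR 2.7.1a, Subread 2.0.0 with featureCounts, edgeR, and GRCm38 (mm10). Their annotation, strand setting and scaling method were not found in the labels. The values the authors deposited are a signal, gene read counts multiplied by a factor constant within a library (1.1192, 1.1128, 1.1381 and 1.12 for HDT replicates 1 and 2 and vehicle replicates 1 and 2). Whole reads were recovered on division by that factor, for 100% of values within 0.01. Genes were kept by filterByExpr of edgeR 4.0.16 on those reads. The deposited values were divided by TMM-scaled totals expressed relative to their geometric mean, so that they kept the scale of reads, and compared as log2(value + 1) with limma 3.58.1 (trend, robust, two-sided, Benjamini-Hochberg over 18285 genes). A fold change is on that scale, where the change of thinly covered genes comes out too small. edgeR's quasi-likelihood test and DESeq2 1.42.0 ran on the recovered reads, and the fit was tested on simulated data. The pairs of replicates differed by more than sampling noise (chi-square per degree of freedom 27.8 for HDT and 15 for vehicle).

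Members and lists were chosen with earlier results of these data known, and members have no test as a set. Named genes are all tested variants, in each replication-dependent class up to 4 called genes with the largest fold and at least 1 CPM and the 2 highest per kb of exon, any called against the sign of the class median, and the 3 most changed called genes of each other list, of which 1 is not reported here. GENCODE M21 matched all 87 members, and exon lengths come from it. Protein sequences were not used here.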

Additional observations from a re-analysis of the deposited data

How the results depend on the processing

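Over 14 alternative settings, Hist1h2bc, H2afx, H1fx and H2afz kept their call and direction in every one. The scaling mattered most. With the deposited values as they are, all genes gave 11483 higher and 998 lower calls, replication-dependent genes 2 higher and 2 lower, variant genes 9 higher and 0 lower, and the histone mRNA processing list 15 higher and 0 lower. In that setting the log2 fold change turned to 0.35 for H1f0, 0.51 for H2afy2, 0.41 for H3f3a, 0.44 for H3f3aos, 0.00 for Hist1h1c and 0.50 for Hist2h2be. With upper-quartile scaling H2afy2 turned to 0.02 and Hist2h2be to 0.00, neither of them called. With no low-count filter, where 12.1% of all genes were higher, so were 3 of the 69 replication-dependent genes. With a filter of 1 CPM in 2 libraries 4 were lower, since 3 of the called genes were no longer tested, and the processing list had 2 lower. DESeq2 gave 0 lower in the processing list.

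Leaving out 1 library at a time gave 0 to 1 higher and 4 to 7 lower replication-dependent genes (in the 7 without vehicle replicate 1, Hist1h2be, Hist2h2aa1 and Hist2h3c2 stand in place of Hist1h1d, Hist1h4h and Hist1h4j), 3 to 4 higher variant genes, and in the processing list 5 to 10 higher and 0 lower. With 1 library left out the log2 fold change ranged over −0.11 to 0.09 for H2afy2, −0.27 to 0.19 for H3f3aos and −0.18 to 0.14 for Hist2h2be, and the sign turned without HDT replicate 1 or vehicle replicate 1 for H2afy2 and H3f3aos and without HDT replicate 2 for Hist2h2be, none of them called. The higher replication-dependent gene was Hist1h3g, without vehicle replicate 2, and it did not pass the filter with all libraries in. With 1 library left out, the lone mouse of its group is assumed to vary like the others. The causes were not tested.

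The replicate numbers in the labels mark no shared animal or batch, and same-numbered libraries did not deviate together (correlation −0.14 across genes). With the replicate block 6 replication-dependent genes were lower, 4 variant genes were higher and 1 was lower, and the processing list had 5 higher and 0 lower. With windows of 50 bases, 33 replication-dependent genes had at least 50% unique windows, against 40 with 100 bases. For the 51 replication-dependent genes below the filter, depth limits any comparison of single genes.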
